A study of Mus musculus with 7 samples.

Results

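The genes of the cytosolic ribosomal proteins in mouse liver were examined for nuclease accessible chromatin at their promoters. Protein-coding genes of the GENCODE M1 annotation of mm9 were taken when the symbol began with Rpl or Rps followed by a digit, or was Rplp0, Rplp1, Rplp2 or Rpsa. Left out were 55 protein-coding genes with pseudogene (-ps) names and 10 Rps6k genes, which encode kinases. This gave 85 of 22359 protein-coding genes, of which 48 were Rpl genes of the large subunit, 34 were Rps genes or Rpsa of the small subunit, and 3 were the Rplp genes of the stalk. The symbol rule also took 8 genes whose symbols mark a paralog or a binding protein (Rpl3l, Rpl7l1, Rpl10l, Rpl22l1, Rpl36al, Rpl39l, Rps27l and Rps19bp1). This class was set by the ending of the symbol alone, so the single-exon gene Rps4y2 stayed among the other 77. It did not take Fau, which encodes a ribosomal protein fused to a ubiquitin-like domain.

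All samples were liver of male C57BL/6 mice aged 8 weeks. Chromatin of pulverized frozen liver was digested with Benzonase (3 samples, at 0.25, 1 and 4 U) or with Cyanase (3 samples, at 0.25, 1 and 4 U), and nuclei were digested with DNase I (1 sample in the labels). Sequence tags of each nuclease were pooled by the authors, and the deposited result for each nuclease was 1 list of hotspots, which are stretches where tags cluster above background. Because tags were pooled there was no spread between replicates, and between DNase I and the other nucleases the enzyme and the preparation of the tissue cannot be told apart.

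The lists held 60910 (Benzonase), 57675 (Cyanase) and 72286 (DNase I) hotspots as start and end positions, the narrowest of 251 bp in each list. The number of tags behind a hotspot is unknown. Of 7 liver genes fixed as markers, such as Alb and Hnf4a, 7 had a start in a hotspot of each list. Of 10 marker genes of other cell types, 2 (Benzonase), 1 (Cyanase) and 2 (DNase I) did. Syn1, a neuronal synapse gene, was among them in all 3 lists. Ptprc, a marker of leukocytes, was among them with DNase I.

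Ribosomal proteins assemble with ribosomal RNA into the small and large ribosomal subunits, and every growing cell makes them in near equal amounts. Their promoters are GC rich and mostly lack a canonical TATA box, and their mRNAs begin with a cytidine followed by a run of pyrimidines. This 5′ terminal oligopyrimidine (TOP) tract places translation of the mRNAs under control of the mTOR kinase. Mammalian genomes also hold many processed pseudogenes of ribosomal protein mRNAs, which were inserted without their promoters.

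The sequences below show annotated starts at pyrimidine tracts. Unless stated otherwise, positions were measured from a reference start of each gene, defined further below. The printed start was the reference start in Rps21, Rpl14 and Rpl10. It lay 418 bp (Rpl30), 54 bp (Rps18) and 87 bp (Rps3) downstream of the reference start in the others. A transcription start site (TSS) was scored as a TOP start when the transcript began with C followed by at least 4 pyrimidines. By this rule 16 of 85 ribosomal protein genes (18.8%) had an annotated TOP start, against 4.04% of all protein-coding genes, 3.9% of 77 mitochondrial ribosomal protein genes and 0 of 42 proteasome subunit genes. Of these starts 6 are given with 80 bases upstream, on mm9 and read 5′ to 3′ on the coding strand. The last 5 letters in capitals are the first transcribed bases. Capitals further upstream mark CCGGAAG (a core bound by ETS factors) or GGGCGG (a core bound by Sp1) on either strand.
Rpl30, chr15:34372973-34373057, minus strand: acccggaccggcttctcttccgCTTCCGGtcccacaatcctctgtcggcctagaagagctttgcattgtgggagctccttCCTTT
Rps21, chr2:179992002-179992086, plus strand: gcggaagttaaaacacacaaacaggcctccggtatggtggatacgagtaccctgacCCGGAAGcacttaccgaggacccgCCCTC
Rps18, chr17:34092604-34092688, minus strand: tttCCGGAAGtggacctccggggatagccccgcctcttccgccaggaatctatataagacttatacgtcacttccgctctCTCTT
Rpl14, chr9:120480552-120480636, plus strand: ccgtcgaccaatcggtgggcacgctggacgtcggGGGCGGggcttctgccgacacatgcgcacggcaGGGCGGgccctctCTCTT
Rps3, chr7:106632157-106632241, minus strand: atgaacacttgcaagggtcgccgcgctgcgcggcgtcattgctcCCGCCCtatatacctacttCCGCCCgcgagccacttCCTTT
Rpl10, chrX:71516116-71516200, plus strand: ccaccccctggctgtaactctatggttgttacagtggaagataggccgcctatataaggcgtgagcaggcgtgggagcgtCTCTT

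The ETS core was present in Rpl30, Rps21 and Rps18 within these 80 bases, the Sp1 core occurred 2 times in Rpl14 and 2 times in Rps3, and Rpl10 had neither. Each of the 16 TOP starts lay inside a hotspot of all 3 nucleases. For any annotated start this held in 94.1% of the 85 ribosomal protein genes and 46.1% of all protein-coding genes. Measured from the TOP start, the DNase I hotspot ended 168 to 360 bp downstream (median 277 bp), while the Benzonase hotspot ended 231 to 790 bp downstream (median 480.5 bp) and the Cyanase hotspot 237 to 651 bp downstream (median 380.5 bp). The upstream edges lay at medians of −609 bp (Benzonase), −599 bp (Cyanase) and −596.5 bp (DNase I).

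A palindromic sequence recurred in some promoters. The letters TCTCGCGAG, on either strand, were found between 250 bases before and 50 bases after the reference TSS in 8 of 85 promoters (9.41%), among them those of Rpl17, Rpl26, Rpl27a, Rps6, Rps19 and Rps28. The share over all protein-coding genes was 0.859%, and over 10025 genes with a CpG island at the TSS it was 1.77%. Such a match is a description of the letters and was not tested as a binding site. Below are 3 of them, whose matches and flanks of 15 bases lie wholly upstream of the TSS, with the matches in capitals. The first matched base lies 70 bases before the reference TSS in Rpl26, 86 in Rps19 and 71 in Rps28.
Rpl26, chr11:68715027-68715066, plus strand: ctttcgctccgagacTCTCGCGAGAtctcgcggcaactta
Rps19, chr7:25669569-25669627, plus strand: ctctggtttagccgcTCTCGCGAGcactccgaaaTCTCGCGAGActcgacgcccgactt
Rps28, chr17:33961484-33961523, minus strand: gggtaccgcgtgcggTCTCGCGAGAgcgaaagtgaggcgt

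Rps19 held 2 matches. In Rpl26, Rps28 and the downstream match of Rps19, the same letters were also present on the other strand, shifted by 1 base. All 8 promoters lay in hotspots of all 3 nucleases, near the share of 94.1% for all 85 genes (46.1% of all protein-coding genes). Rps6, whose protein is phosphorylated by S6 kinases, carried its match across the reference TSS.

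The first comparison asked whether the 3 nucleases opened the same ribosomal protein promoters. A gene was counted when any TSS of its protein-coding transcripts lay inside a hotspot. With Benzonase 83 of 85 genes were counted (97.6%, 95% Wilson interval 91.8 to 99.4%), against 57.4% of all protein-coding genes. With Cyanase 82 genes were counted (96.5%, interval 90.1 to 98.8%), against 55.7%. With DNase I 80 genes were counted (94.1%, interval 87.0 to 97.5%), against 47.4%. The intervals cover counting error over genes only. The same genes were scored in each list, so the intervals do not serve to compare the nucleases. All 80 genes marked with DNase I were also marked with Benzonase and Cyanase, and the share marked by all 3 was 46.1% over all protein-coding genes. When a hotspot within 1 kb of the reference TSS was enough, the counts were 83, 82 and 82, against 58, 56.4 and 48.9% of all genes.

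**Figure D1:**
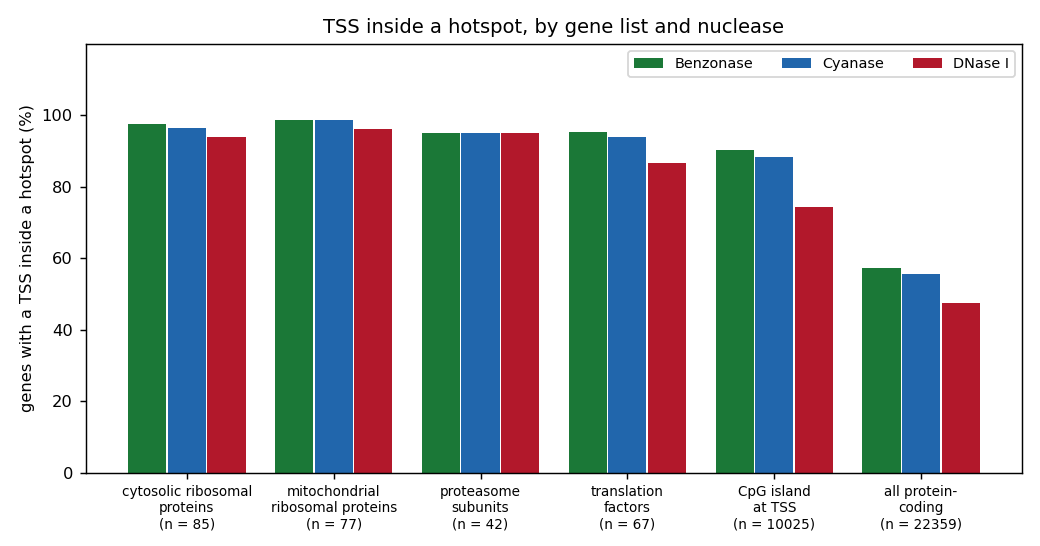
Share of genes with a TSS inside a hotspot (y axis, percent) for 6 gene lists (x axis) and the 3 nucleases (bars). The 3 bars of the 85 ribosomal protein genes stand at 97.6, 96.5 and 94.1%, and those of all protein-coding genes at 57.4, 55.7 and 47.4%.

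A CpG island lay at the reference TSS of 65 of 85 genes (76.5%, against 44.8% of all protein-coding genes). Among the genes with an island, 65 were marked with Benzonase, 65 with Cyanase and 64 with DNase I. Over all 10025 protein-coding genes with an island the shares were 90.4, 88.4 and 74.5%, and 74.3% for all 3 together. Within 1 kb of the reference TSS all 65 had a hotspot of each list, against 92.1, 90.2 and 77.9% of the 10025 genes. The 1 gene with an island and no DNase I hotspot at a TSS was Rps4x, which encodes the X-linked form of a small subunit protein. Among the 20 genes without an island, 18, 17 and 16 were marked (90, 85 and 80%). Over all protein-coding genes, with or without an island, the shares were 57.4, 55.7 and 47.4%. The shares over all genes without an island were not computed. Genes of other protein complexes had like shares. Of 77 mitochondrial ribosomal protein genes 76, 76 and 74 were marked, and of 42 proteasome subunit genes 40, 40 and 40. Of 67 translation factor genes 64, 63 and 58 were marked. A list of 10 further genes of the ribosome and of TOP mRNAs, which includes Fau and Gnb2l1, was marked in full by each nuclease.

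Without the 8 paralog and binding protein symbols, 77 of 77 genes were marked with Benzonase, 77 with Cyanase and 75 with DNase I. The 8 other genes gave 6, 5 and 5. Small subunit genes were marked in 34, 34 and 33 of 34 cases, large subunit genes in 46, 45 and 44 of 48, and the 3 stalk genes in all 3 lists. On chromosome X all 4 genes (Rpl10, Rpl36a, Rpl39 and Rps4x) were marked with Benzonase and Cyanase and 3 with DNase I. The share over all genes of chromosome X was not computed. Over all protein-coding genes the shares were 57.4, 55.7 and 47.4%.

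Pseudogenes gave a contrast within the same sequence family. Of 107 annotated pseudogenes of ribosomal proteins, 0 had a hotspot of any list at the 5′ end, while of 5201 pseudogenes of all kinds 2.85% (Benzonase), 2.6% (Cyanase) and 2.17% (DNase I) did. Hotspots touched the bodies of 2, 1 and 1 of the 107, against 5.21, 4.48 and 4% of all pseudogenes. Of the 55 -ps genes annotated as protein-coding, 3, 2 and 2 had a TSS in a hotspot, and these were among Rpl21-ps3, Rpl21-ps7 and Rpl27a-ps1. Near-identical copies limit which tags can be placed uniquely, and the part of this in the pseudogene counts was not tested.

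The 5 genes not marked in every list were examined singly. Rpl39l, whose protein is a testis form of the large subunit protein Rpl39, had no hotspot within 1 kb in any list. The nearest hotspots to its reference TSS lay 22273 bp (Benzonase), 22262 bp (Cyanase) and 22393 bp (DNase I) downstream. Rpl3l, a paralog of Rpl3 expressed in striated muscle, also had none, and the nearest hotspots ended 2986, 2988 and 3051 bp upstream. A hotspot of each list did reach the 3′ end of Rpl3l. Rpl10l, a copy of Rpl10 with a single exon of 1021 bp that is known from testis, had a Benzonase hotspot of 590 bp at chr12:67384805-67385394, from −6 to +583 bp of its TSS and therefore in the exon. No Cyanase hotspot lay within 199646 bp of that TSS and no DNase I hotspot within 214757 bp.

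Rpl35, a large subunit gene, was marked with Benzonase (−67 to +1253 bp) and Cyanase (−14 to +1277 bp), whereas the DNase I hotspot at chr2:38860357-38861096 began 48 bp downstream of its 1 annotated TSS, within the first exon of 541 bp. The RefSeq start of Rpl35, placed on mm9 by sequence, lay 493 bp further downstream, was a TOP start and fell inside the hotspots of all 3 nucleases. From that start the DNase I hotspot ran from −445 to +294 bp. The missing call in Rpl35 therefore depended on the annotated start.

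Rps4x did not. The Benzonase hotspot of Rps4x had 792 bp and ran from −240 to +551 bp, and its Cyanase hotspot of 731 bp ran from −266 to +464 bp. The nearest DNase I hotspot was a stretch of 272 bp at chrX:99384043-99384314, from +419 to +690 bp and downstream of the first exon of 97 bp. The RefSeq start of Rps4x lay 3 bp from the reference and was likewise outside the DNase I list. When starts of any transcript were counted, DNase I marked 81 genes in place of 80, and the count for all 3 nucleases rose alike. The counts with Benzonase and Cyanase stayed the same, so the gene gained was Rpl35 or Rps4x. Which of them it was is not recorded. Rps14, a small subunit gene with 5 annotated starts, was marked by all 3 nucleases at another start, although its reference TSS lay 126 bp (Benzonase), 54 bp (Cyanase) and 303 bp (DNase I) beyond the nearest hotspot.

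The second comparison asked how wide the hotspots were and where they lay. The reference TSS was the middle annotated start of the protein-coding transcripts of a gene (the upstream of the middle pair for an even number), and distances are negative upstream. A hotspot covered it in 82 genes with Benzonase, 81 with Cyanase and 79 with DNase I, and no 2 genes shared a hotspot. The median width was 1183.5 bp with Benzonase (quartiles 1032.75 and 1372.25 bp, range 590 to 2667 bp). With Cyanase it was 1079 bp (quartiles 890 and 1247 bp, range 604 to 2365 bp). With DNase I it was 813 bp (quartiles 718.5 and 990 bp, range 450 to 2076 bp). Over all protein-coding genes with a hotspot at the reference TSS the medians were 1250, 1160 and 854 bp, so the ribosomal protein genes had slightly lower medians in each list. With a CpG island at the TSS the medians were 1196, 1088 and 808 bp in the ribosomal protein genes and 1319, 1230 and 869 bp in all protein-coding genes.

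The upstream edges lay close together, at medians of −529 bp (Benzonase), −495 bp (Cyanase) and −483 bp (DNase I), against −536, −509 and −478 bp over all genes. The downstream edges were further apart. Their medians were +629.5 bp with Benzonase (quartiles 505 and 797 bp), +504 bp with Cyanase (quartiles 392 and 687 bp) and +321 bp with DNase I (quartiles 281 and 364 bp), against 647, 594 and 324 bp over all genes. Of the 3 downstream edges, that of DNase I varied least, both among the ribosomal protein genes and over all genes. The interquartile ranges with Benzonase and Cyanase were 292 and 295 bp, against 446.25 and 433 bp over all genes. With DNase I the range was 83 bp, against 209 bp over all genes. Among genes with a CpG island at the TSS it was 79 bp in 64 ribosomal protein genes and 198 bp in 7232 protein-coding genes. Mitochondrial ribosomal protein genes gave 193 bp and proteasome subunit genes 124 bp. Midpoints lay at medians of +44, −4.5 and −74.5 bp, against 44, 27.5 and −71 bp over all genes.

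**Figure D2:**
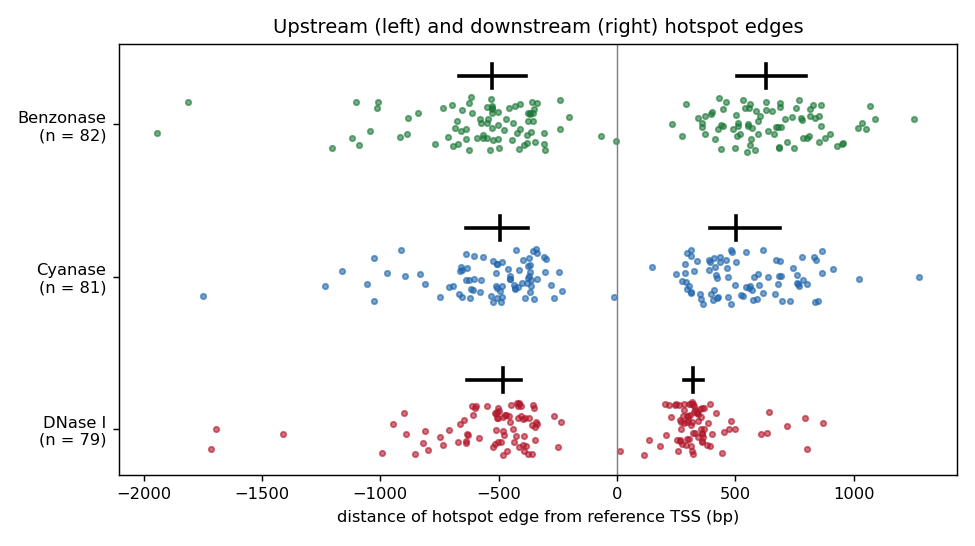
Distance of the upstream and downstream hotspot edge from the reference TSS (x axis, bp) for each ribosomal protein gene (points), by nuclease (rows). Black bars give the quartiles and the tick the median. DNase I downstream edges gather around the median of 321 bp, and those of Benzonase spread from 505 to 797 bp between quartiles.

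Hotspots of all 3 nucleases at the reference TSS were present in 79 ribosomal protein genes and in 9432 protein-coding genes. In these 79 the DNase I hotspot was the narrowest in 67 (84.8%, against 81.4% of all 9432) and the widest in 5 (6.33%, against 10.9%). The order Benzonase, Cyanase, DNase I from widest to narrowest held in 58 (73.4%, against 65.1%). These shares lay near the background. The DNase I downstream edge was the nearest to the TSS in 70 (88.6%, against 83.7%), and its upstream edge in 38 (48.1%, against 59%).

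Gene by gene, the Benzonase hotspot was wider than the DNase I hotspot by a median of 291 bp and ended further downstream in 77 of 79 genes (against 88.4% of all 9432), by a median of 255 bp. The Cyanase hotspot was wider than that of DNase I by a median of 184 bp and ended further downstream in 71 of 79 (against 85%), by 150 bp. Benzonase hotspots were wider than Cyanase hotspots in 70 of 79 (against 80%), by a median of 111 bp. Over all genes the corresponding medians of the width difference were 351, 254 and 67 bp. Upstream edges of Benzonase and Cyanase came within 50 bp of each other in 54 of 79 genes (against 63.1%), and downstream edges in 29 (against 53%). With no replicate lists, these differences cannot be set against replicate spread.

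**Figure D3:**
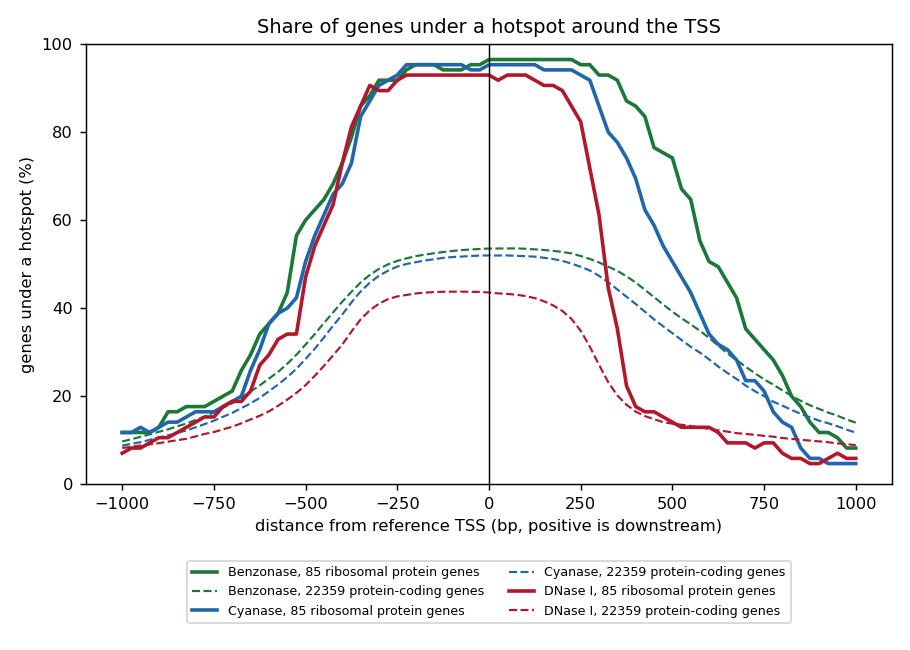
Share of genes under a hotspot (y axis, percent) at distances from 1000 bp upstream to 1000 bp downstream of the reference TSS (x axis, bp). Solid lines are the 85 ribosomal protein genes and dashed lines all 22359 protein-coding genes, coloured by nuclease. At +400 bp the solid lines stand at 85.9, 69.4 and 17.6%.

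The profile of coverage showed the same edge. At −400 bp hotspots of Benzonase, Cyanase and DNase I covered 72.9, 68.2 and 72.9% of the ribosomal protein genes, and at the TSS 96.5, 95.3 and 92.9%. At +200 bp they covered 96.5, 94.1 and 89.4%, and at +300 bp 92.9, 85.9 and 61.2%. At +400 bp the shares were 85.9, 69.4 and 17.6%, against 45.8, 40.9 and 16.5% of all protein-coding genes. The DNase I share thus fell from 92.9% at the TSS to 17.6% among ribosomal protein genes, and from 43.6 to 16.5% over all genes. All genes include those without any hotspot, so near shares at +400 bp do not mean like edges among marked genes. The Benzonase and Cyanase shares came near those of all genes further downstream.

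Bases were then compared in the 79 genes, using only the hotspot over the reference TSS in each list. Bases under a further hotspot of the same list were counted as not covered. The bases covered by all 3 nucleases formed a core with a median of 765 bp (range 217 to 2029 bp), from −452 to +321 bp at the medians. The core made up a median of 66.6% of the bases covered by any of the 3. In total the core held 65555 bp over the 79 genes, with a GC content of 54.2% upstream and 63.7% downstream of the TSS. Bases in Benzonase and Cyanase but not DNase I hotspots came to 20071 bp, of which 14844 bp lay downstream (58.0% GC) and 5227 bp upstream (54.5% GC). DNase I alone covered 3146 bp, of which 3110 bp lay upstream with a GC content of 42.7% and 36 bp downstream. Of these bases 52.4% came from Rps21 (597 bp), Rps29 (585 bp) and Rpl7l1 (466 bp), and 52 of 79 genes had none. The shared share of covered bases (intersection over union) had a median of 89.3% between Benzonase and Cyanase, 68.8% between Benzonase and DNase I and 75.6% between Cyanase and DNase I.

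**Figure D4:**
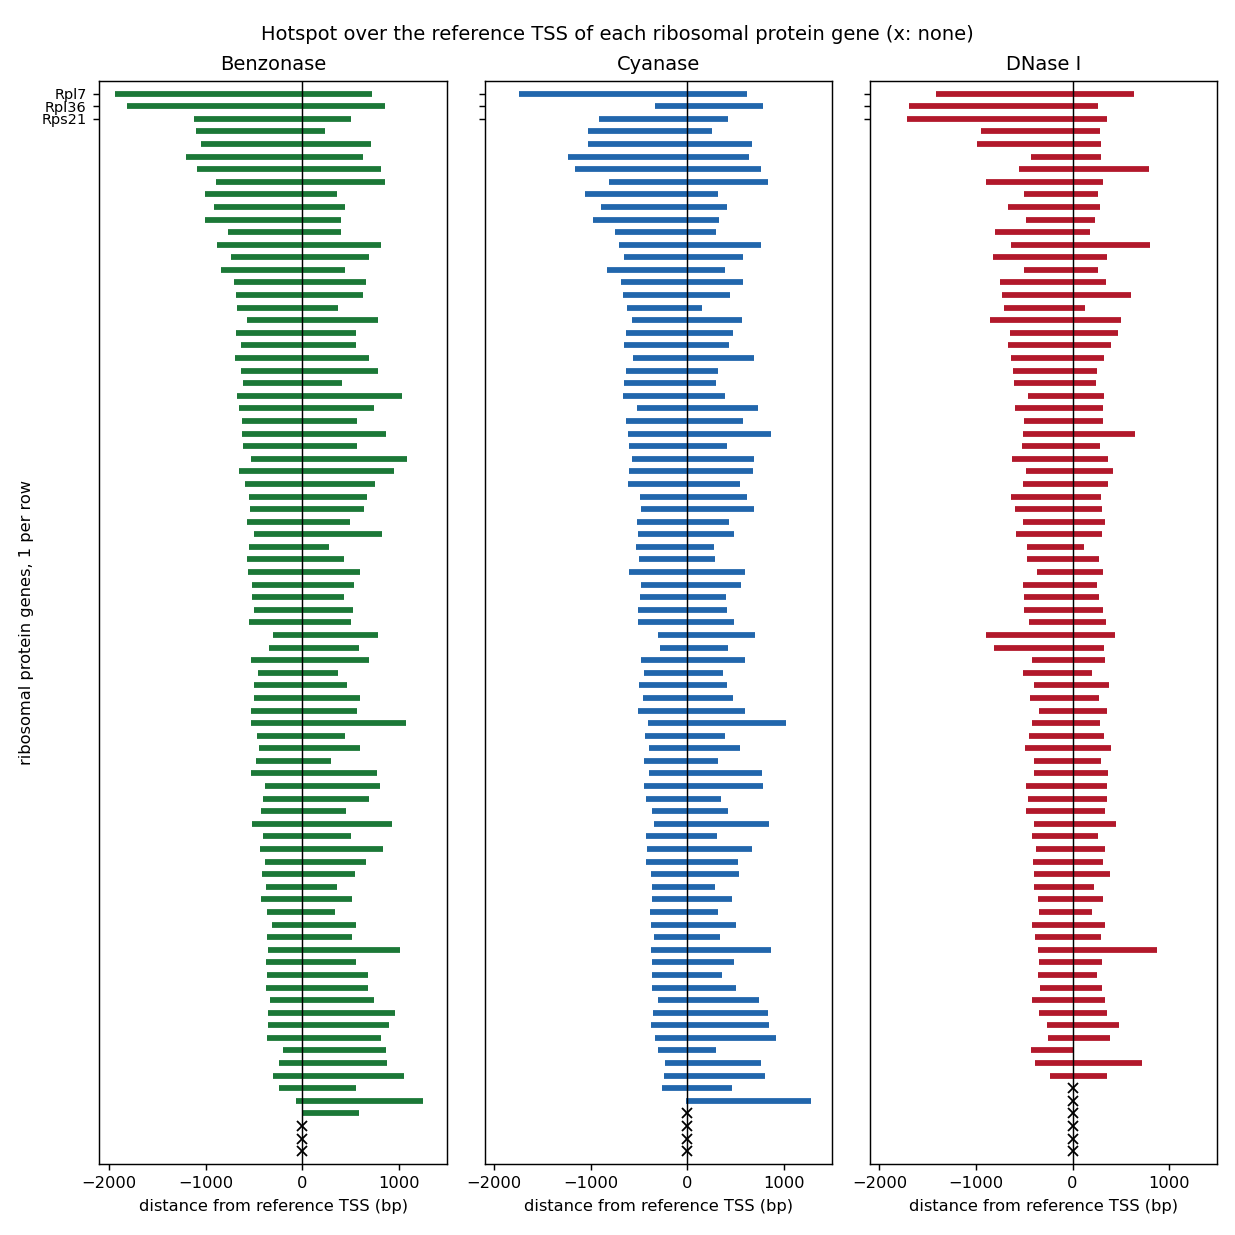
Extent of the hotspot over the reference TSS of each ribosomal protein gene (rows, sorted by the mean upstream edge) in bp from the TSS (x axis), with 1 panel per nuclease and a cross where no hotspot covered the reference TSS. Rpl7, Rpl36 and Rps21 reach furthest upstream at the top, and the DNase I bars end at a median of 321 bp.

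The widest hotspots by the mean of the 3 lists were those of Rpl7, Rpl36, Rps15a, Rps21 and Rps19. Rpl7, a large subunit gene, had widths of 2663 bp (Benzonase), 2365 bp (Cyanase) and 2046 bp (DNase I), with upstream edges at −1943, −1747 and −1411 bp. Rpl36 had 2667 bp with Benzonase, 1125 bp with Cyanase and 1959 bp with DNase I. In Rpl36 the Cyanase list had its upstream edge at −339 bp where the other lists had −1812 and −1692 bp, and a further Cyanase hotspot lay within 1 kb. The Benzonase hotspot of Rpl36 spanned the whole gene of 849 bp. Rps19, which is mutated in Diamond-Blackfan anaemia, had 1753, 1702 and 1284 bp, and Rps15a had 1899, 1930 and 1345 bp.

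The narrowest were those of Rps15, Rpl24, Rps4y2, Rpl13a and Rps28. Rps15 had widths of 709 bp (Benzonase), 701 bp (Cyanase) and 558 bp (DNase I), and Rpl24 had 738, 659 and 615 bp. Rps4y2, an annotated single-exon gene on chromosome 6, had 1065, 604 and 450 bp, and its 3 hotspots shared 16.7% of their bases, the lowest share of the 79. Its DNase I hotspot reached 14 bp past the TSS. Rpl13a had 827, 806 and 592 bp at the reference TSS, but its RefSeq start lay 7486 bp further downstream. There the widths were 1642, 1662 and 1509 bp, with downstream edges at +427, +413 and +290 bp, so that its place among the narrowest depended on the start used.

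DNase I hotspots were among the narrowest against the mean of the other lists in Rpl36al and Rps25. Rpl36al, whose start lies 145 bp from the divergent start of the glycosyltransferase gene Mgat2, had 1834 bp (Benzonase), 1875 bp (Cyanase) and 727 bp (DNase I). The DNase I hotspot of Rpl36al ended its upstream side at −427 bp, against −1203 and −1235 bp in the other lists. Rps25 had 1416, 1299 and 713 bp, with upstream edges at −1012, −973 and −483 bp.

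The opposite order was seen in Rps21, Rpl7l1, Rps29, Rps23 and Rpl39, where DNase I hotspots were the widest. Rps21 had 1619 bp (Benzonase), 1336 bp (Cyanase) and 2076 bp (DNase I), Rpl7l1 had 935, 701 and 1137 bp, and Rps29 had 1087, 997 and 1336 bp. In each of these 3 genes the extra DNase I bases lay upstream, with DNase I edges at −1715, −813 and −891 bp against Benzonase edges at −1118, −347 and −306 bp. Rps23 had 1313, 1106 and 1344 bp, and Rpl39 had 1354, 1139 and 1356 bp, so the Benzonase and DNase I widths hardly differed in either. Their positions did differ in Rpl39, where Benzonase ran from −568 to +785 bp and DNase I from −855 to +500 bp.

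By the mean of the 3 lists, midpoints lay furthest upstream in Rpl7, Rps21, Rpl10 and Rpl36, although the Cyanase midpoint of Rpl36 lay at +223 bp. Rpl10, which is required for joining of the ribosomal subunits, was similar in all 3 lists, from −1103 to +231 bp (Benzonase), −1025 to +249 bp (Cyanase) and −946 to +285 bp (DNase I). By the same mean, midpoints lay far downstream in Rpl38, Rpl30, Rpl19 and Rpl12. Rpl38 ran from −356 to +1016 bp, −381 to +865 bp and −358 to +871 bp. In Rpl38 the DNase I downstream edge lay near that of Cyanase and short of that of Benzonase. In Rpl30 the reference TSS was 418 bp upstream of the TOP start printed above. From the TOP start its hotspots ran from −659 to +461 bp, −650 to +341 bp and −804 to +299 bp, where the DNase I edge was near the median of the 16 TOP starts. Rpl19 had widths of 1254, 1219 and 748 bp, and Rpl12 had 1179, 1251 and 636 bp.

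The remaining examples were ordinary by width. Rpl32 had 1419 bp (Benzonase), 953 bp (Cyanase) and 863 bp (DNase I), with upstream edges at −639, −638 and −614 bp and downstream edges at +779, +314 and +248 bp. The Rpl32 lists differed downstream and hardly upstream. Rps16 had 966, 917 and 778 bp. Of the stalk genes, whose proteins recruit elongation factors to the ribosome, Rplp0 had 1046, 957 and 728 bp, Rplp1 had 1196, 1208 and 816 bp, and Rplp2 had 1167, 1047 and 983 bp. Rpsa, also known as the laminin receptor gene, had 1181, 1018 and 803 bp.

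Width was also described by class of gene. Large subunit genes had medians of 1205, 1088 and 786 bp and small subunit genes 1181, 1045 and 818 bp for Benzonase, Cyanase and DNase I. The paralogs and the binding protein gene had 946.5 bp (6 genes), 905 bp (5) and 787 bp (5), and the other members 1186.5, 1083.5 and 814.5 bp. A divergent start of another protein-coding gene lay within 1 kb upstream in 12 of 85 genes (14.1%, against 8.52% of all genes), the closest being Rab13, 44 bp from Rps27, and Med22, 87 bp from Rpl7a. All 12 were marked by each nuclease, near the share of 94.1% for all 85 genes (46.1% of all protein-coding genes). Their median widths were 1268, 1262.5 and 757 bp, and their median upstream edges −644.5, −599 and −476 bp. Mitochondrial ribosomal protein genes had median widths of 1108, 978 and 820.5 bp and downstream edges of 533.5, 483.5 and 352 bp, so the same order of nucleases was present there. Proteasome subunit genes had widths of 1182, 1088 and 833 bp and downstream edges of 596, 520 and 327 bp. Hotspots were wider at translation factor genes, with 1455, 1287 and 939.5 bp, and at the 10 further genes of the ribosome and of TOP mRNAs, with 1595.5, 1478.5 and 1081.5 bp.

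Ribosomal protein genes are short, with a median length of 3243 bp against 15427 bp over all protein-coding genes. Hotspots covered a median of 21.9% (Benzonase), 18.9% (Cyanase) and 13.5% (DNase I) of the gene, against 2.24, 1.91 and 1.57% over all genes. The first exon lay wholly inside the promoter hotspot in 79 of 82, 76 of 81 and 72 of 79 genes, against 89.6, 87.8 and 75.1% of all genes with a hotspot at the reference TSS. Hotspots in the gene more than 1 kb from the reference TSS were found in 12, 11 and 16 of 85 genes, against 37.8, 36.3 and 40.2% of all protein-coding genes, which are longer. More than 1 hotspot lay within 1 kb of the TSS in 2 genes with Benzonase (Rpl12 and Rpl37), in 5 with Cyanase (Rpl8, Rpl12, Rpl36, Rpl37 and Rplp1) and in 9 with DNase I (Rpl12, Rpl27a, Rpl37, Rpl38, Rplp0, Rplp1, Rps2, Rps3a and Rps24). Over all protein-coding genes these shares were 5.87, 6.15 and 10%.

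Sequence features that the choice of genes did not use were then described. The GC content from 250 bases before to 50 bases after the reference TSS had a median of 56.3%, against 55.7% over all protein-coding genes, whereas the ratio of observed to expected CpG was 0.851 against 0.545. The GC content of the hotspots had medians of 57.6, 58.6 and 57.8%, against 58.7, 59.3 and 58.5%. The ETS core CCGGAAG, on either strand, was present in 27 of 85 promoters (31.8%), against 11% of all promoters, 19.4% of those with a CpG island, 36.4% of mitochondrial ribosomal protein promoters and 28.6% of proteasome promoters. Its first base lay at a median of −36 bases from the TSS.

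The Sp1 core GGGCGG was present in 45 promoters (52.9%, against 44.1% of all promoters and 76.8% of those with a CpG island). CCAAT, the box bound by NF-Y, was present in 24 (28.2%, against 37.3% of all promoters and 35.5% of those with a CpG island). CACGTG, an E-box bound by Myc and other factors, was present in 8 (9.41%, against 7.73 and 11.2%). AAGATGGCG, a form of the YY1 site, was present in 4 (Rpl23a, Rpl35a, Rpl7l1 and Rps27), or 4.71% against 1.95 and 3.55%. Its share was 11.7% of mitochondrial ribosomal protein promoters and 7.14% of proteasome promoters. GCGCATGCG, the Nrf1 site, was present in Rpl37a alone (1.18%, against 2.12% of all promoters and 4.09% of those with a CpG island). TATAAA between 40 and 15 bases before the reference TSS was present in Rps28 alone (1.18%). The share was 2.37% of all promoters and 0.848% of those with a CpG island. In Rps2 the TOP start lay 47 bp downstream of the reference TSS. TATAAA lay before that TOP start, and so outside this window. The searches were made on both strands except for TATAAA, and a promoter without a match lacks only those letters in the window. Matches near a TOP start can lie outside it. The Sp1 cores of Rps3 and the ETS core of Rpl30, printed above, were not counted for this reason. Their TOP starts lay 87 and 418 bp downstream of the reference TSS.

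**Figure D5:**
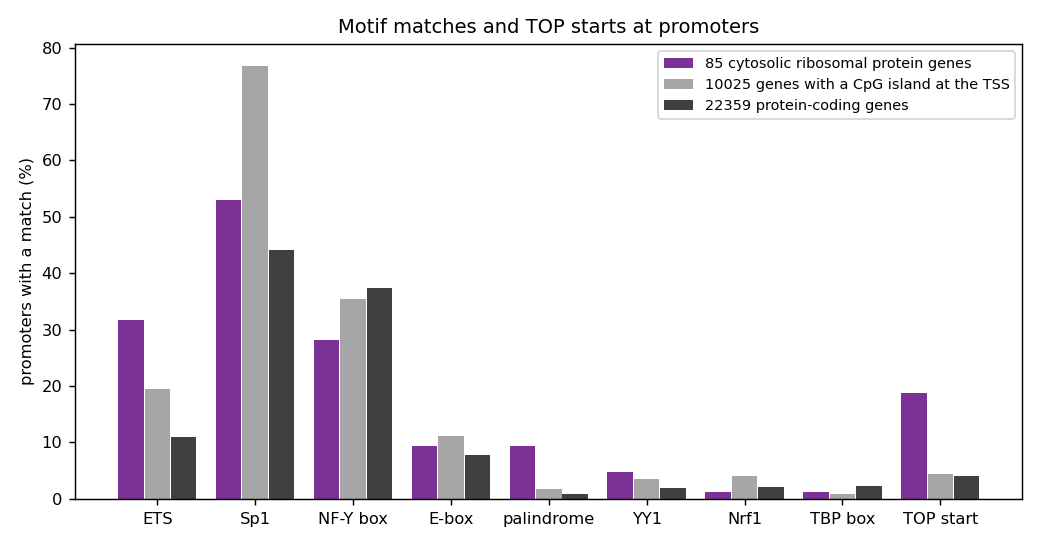
Share of promoters with a motif match between 250 bases before and 50 bases after the reference TSS, or with a TOP start (y axis, percent), for ribosomal protein genes, genes with a CpG island at the TSS and all protein-coding genes (bars). The NF-Y box is at 28.2% and the TBP box (TATAAA) at 1.18% of the ribosomal protein genes, and TOP starts are at 18.8%.

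RefSeq starts were available as a second annotation for 63 of the 85 genes. They lay a median of 5 bp from the reference TSS, and more than 50 bp from it in 13 genes. Of the 63, 61 lay in a Benzonase hotspot (96.8%), 60 in a Cyanase hotspot (95.2%) and 59 in a DNase I hotspot (93.7%), against 61.2, 59.6 and 51% of 14587 genes placed in the same way. A TOP start was exact in 13 of 63 (20.6%, against 2.74%) and present within 5 bases of the start in 29 (46%, against 21.6%).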

How the data were processed

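The study measured nuclease accessibility of mouse liver chromatin. The authors aligned tags to mm9 with Eland or Bowtie (versions not given in the sources used here), pooled the libraries of a nuclease, and detected hotspots with a false discovery rate set to 0% and a threshold on tag density at its mode. The deposited values are start and end positions only, without score or tag density, per the file headers input adjusted and unmerged. Tag numbers per hotspot, and so the depth behind them, are unknown. Wide hotspots can arise from more tags as well as from more accessible bases. There were 0 columns of other samples.

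From these lists, hotspots were intersected (overlap of at least 1 bp) with TSSs of protein-coding transcripts of GENCODE M1 on NCBIM37 (mm9), and printed coordinates count from 1. CpG islands were maximal-scoring segments (17 for a CpG, -1 otherwise) of 200 bp or longer whose GC content exceeded 50% and whose CpG frequency exceeded 0.6 of expectation. RefSeq promoters (GRCm38.p6) were placed on mm9 by exact sequence, if unique within 20 kb of the gene. No p-values were computed, because each nuclease has 1 pooled list. Shares carry 95% Wilson intervals. Scripts ran in Python 3.11.15 with pandas 2.3.3, scipy 1.17.1, numba 0.67.0, numpy 2.4.6 and, for plots, matplotlib 3.10.9. Island calling and scoring were tested on simulated data.

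The genes, comparison lists, motifs and markers were chosen with earlier results of these data known. Genes named were those without a TSS hotspot in at least 1 list, the 5 widest, 5 narrowest, 5 farthest upstream and 5 farthest downstream, the 5 with the largest and the 5 with the smallest DNase I width less the mean of the others, those with more than 1 hotspot within 1 kb, and a set of examples. Rps14, the genes with motif matches, divergent starts or TOP starts, and the -ps genes were named after their values were seen. Alternatives were other TSS sets, a distance of 1 kb, leaving out the narrowest 25% of hotspots, joining hotspots within 150 bp and leaving out the 8 paralog and binding protein genes. RefSeq starts were added after the data were seen. Some genes that these rules name, and some sequences, are not reported here.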

Additional observations from a re-analysis of the deposited data

How the results depend on the processing

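Of 88 values recomputed under other settings, 87 stayed within the 95% interval of the median or within 1.5 times the count. The exception was the median DNase I midpoint, which lay at −52 bp with the 5′-most TSS of each gene and at −74.5 bp with the middle TSS. For the counts, the limit of 1.5 times lay above the number of genes examined. No rise could pass it, and only a large drop could, so the counts were hardly tested. Leaving out the narrowest hotspots removed none at the reference TSS with Benzonase (82 genes) or Cyanase (81 genes). Their medians could therefore not change under that setting. The Cyanase midpoint, close to the TSS, changed sign within its interval, from −4.5 bp to +41.75 bp with the 5′-most TSS, and the Benzonase midpoint went from +44 bp to +11.5 bp with RefSeq starts. With the 5′-most TSS only, genes marked were 81 (Benzonase), 80 (Cyanase), 79 (DNase I) and 78 (all 3). No paired analysis was possible because each nuclease has 1 list of pooled tags, and for the same reason no replicate could be left out. The 3 concentrations of an enzyme cannot be separated in these lists. Hotspot width depends on tag depth and on the threshold of the calling, which the lists do not give per hotspot, and their part in the differences between nucleases was not tested.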
